A study of Mus musculus with 16 samples.

Results

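Expression of 7 genes that organize lymphoid tissue was followed in bulk RNA-seq of 16 MC38 tumors, each from another mouse. They were the chemokines Ccl19, Ccl21a and Cxcl13, the chemokine receptor Cxcr5, the lymphotoxin genes Lta and Ltb, and their receptor gene Ltbr. All 7 were chosen for their function, with earlier results of these data already known, and were matched by symbol. All were found among the 53465 genes of the table. MC38 is a mouse colon carcinoma line, and its cells had been injected under the flank skin of female C57BL/6 mice that were 6 to 8 weeks old. Mice whose tumors measured 150 to 250 mm3 on day 16 received 200 µg of either control IgG (8 mice) or antibody to the checkpoint receptor PD-1 (aPD-1, 8 mice) on days 16 and 20, and tumors were taken on day 21. Every tumor arose from the same cell line. The study divided the aPD-1 tumors into 6 non-responders and 2 responders by staining CD8 T cells in tissue of the same tumors, so the response label was itself a measure of immune cells in the tumor, given after treatment. Tumors are numbered 1 to 16: replicates 1 to 8 were IgG controls, 9 to 14 non-responders, and 15 and 16 responders.

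Homeostatic chemokines set up the compartments of lymph nodes and of the lymphoid aggregates that can form in inflamed tissue and tumors. CCL19 and CCL21 bind CCR7 and draw naive T cells and mature dendritic cells into the T cell zone, while CXCL13 binds CXCR5 and draws B cells and follicular helper T cells into follicles. Lymphotoxin alpha and beta form a trimer on the surface of lymphocytes that engages the lymphotoxin beta receptor on stromal cells, and that signal, through NF-κB, maintains stromal production of these chemokines.

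The totals per tumor ranged from 26603477 to 39948874 counts, with a median of 34105794. Levels are given as CPM (counts scaled to a common library size, corrected by the TMM method), and at these depths a count of 3 corresponded to between 0.0759 and 0.114 CPM. IgG control replicate 3 stood apart in that a single ribosomal RNA entry held 20.4% of its counts, against at most 0.489% elsewhere. Epithelial markers, a rough guide to the labelled colon carcinoma, were low in the RNA of most tumors. The 6 summed to 4.95 to 10.2 CPM in IgG controls, 4.61 to 12.2 CPM in non-responders, and 50.5 and 116 CPM in responders. Of the 6, Vil1 was not higher in responders, at 0.0591 to 0.141 CPM, against up to 0.266 CPM in IgG controls and 0.283 CPM in non-responders. These markers alone do not settle the labelled identity in any group. In this bulk tissue, fewer cells of a type and less RNA per cell cannot be told apart.

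The stretches of sequence before the start sites of Cxcl13, Ltb and Ccl21a are shown as examples, because NF-κB acts at promoters of this pathway. These 3 are among the genes that were higher in the responders, and any part of the stretches in that was not tested. RefSeq promoter windows (assembly GRCm38.p6) were found for 6 of the 7 genes. The 250 bases before each RefSeq start were searched on both strands for GGGNNNNNCC, a loose form of the κB motif, and for GGGAGATTT, the core of a κB form described for Cxcl13. The loose form occurred in the windows of 5 of the 6 genes, all but Ccl21a, and in 45.8% of all 32851 promoters searched. GGGAGATTT occurred in the Cxcl13 window alone of the 6, beginning 114 bases before the start, and in 0.283% of all promoters. Because this form was described for Cxcl13 itself, its presence there was known in advance and that share does not make it a finding. A match describes letters in a window, not a site in use. Matches are in capitals, and each stretch reads 5′ to 3′ along the strand of its gene and ends before the first annotated base. Cxcl13 is on the plus strand at chr5:95956689-95956938, Ltb on the plus strand at chr17:35194257-35194438 and Ccl21a on the minus strand at chr4:42773994-42774241. In the Ltb window, 3 further matches that overlap each other lie past the end of the printed stretch.
Cxcl13: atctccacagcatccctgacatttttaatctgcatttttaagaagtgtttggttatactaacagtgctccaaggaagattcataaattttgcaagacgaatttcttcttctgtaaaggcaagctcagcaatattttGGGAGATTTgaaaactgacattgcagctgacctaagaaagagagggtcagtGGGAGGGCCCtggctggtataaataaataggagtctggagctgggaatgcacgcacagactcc
Ltb: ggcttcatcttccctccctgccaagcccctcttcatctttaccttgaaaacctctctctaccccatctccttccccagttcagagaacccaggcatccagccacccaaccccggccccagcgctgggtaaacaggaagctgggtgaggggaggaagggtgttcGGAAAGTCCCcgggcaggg
Ccl21a: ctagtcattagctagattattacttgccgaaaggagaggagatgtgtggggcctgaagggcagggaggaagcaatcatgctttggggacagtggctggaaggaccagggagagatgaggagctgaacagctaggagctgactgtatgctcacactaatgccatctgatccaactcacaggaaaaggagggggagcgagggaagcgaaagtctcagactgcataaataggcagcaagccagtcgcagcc

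Responders expressed 6 of the 7 genes at far higher levels than non-responders and IgG controls, and the receptor gene Ltbr was the 1 that was not called. By edgeR's quasi-likelihood test, with calls made where the Benjamini-Hochberg adjusted p was under 0.05 and the log2 change exceeded 1 in size, 6 of the 7 were called higher in responders than in non-responders, where 12.5% of the 18251 genes tested were called higher. Against IgG controls the same 6 genes were called higher, where 14.3% of genes were. For each of the 6, both responders lay above all 14 other tumors. Of all genes tested, 21.5% had both responders above all non-responders and 19.3% had both above all IgG controls. The share with both responders above all 14 other tumors was not computed and cannot exceed the smaller of these. With 2 responders, the spread within that group was estimated together with that of the other groups, and both comparisons use the same responders. All 7 genes passed the filter on low counts, but Ccl19 passed only through the responders, so its inclusion among tested genes was tied to its level there. The other called genes of the 7 passed otherwise, and of 17394 genes that did so 9.74% were called higher in responders than in non-responders. Markers of B cells and fat cells, summed, were also higher in both responders than in any other tumor. The same held for T cell, plasma cell, natural killer cell and epithelial markers, among others. Of high endothelial venule markers 4 of 5 were called, 2 of them tested only through the responders. For each of these 4 both responders lay above all 14 other tumors. The sum of the list did not separate the groups, but outside the responders it was nearly all Gcnt1, the gene not called. Gcnt1 was at 58.5 to 105 CPM in IgG controls, 72.8 to 97.3 CPM in non-responders and 71.0 to 83.0 CPM in responders. Sums of fibroblastic reticular cell markers overlapped. Lymph nodes and the fat around them hold several of these cell types. Whether the responder samples held lymph node or other adjacent tissue was not tested.

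**Figure D1:**
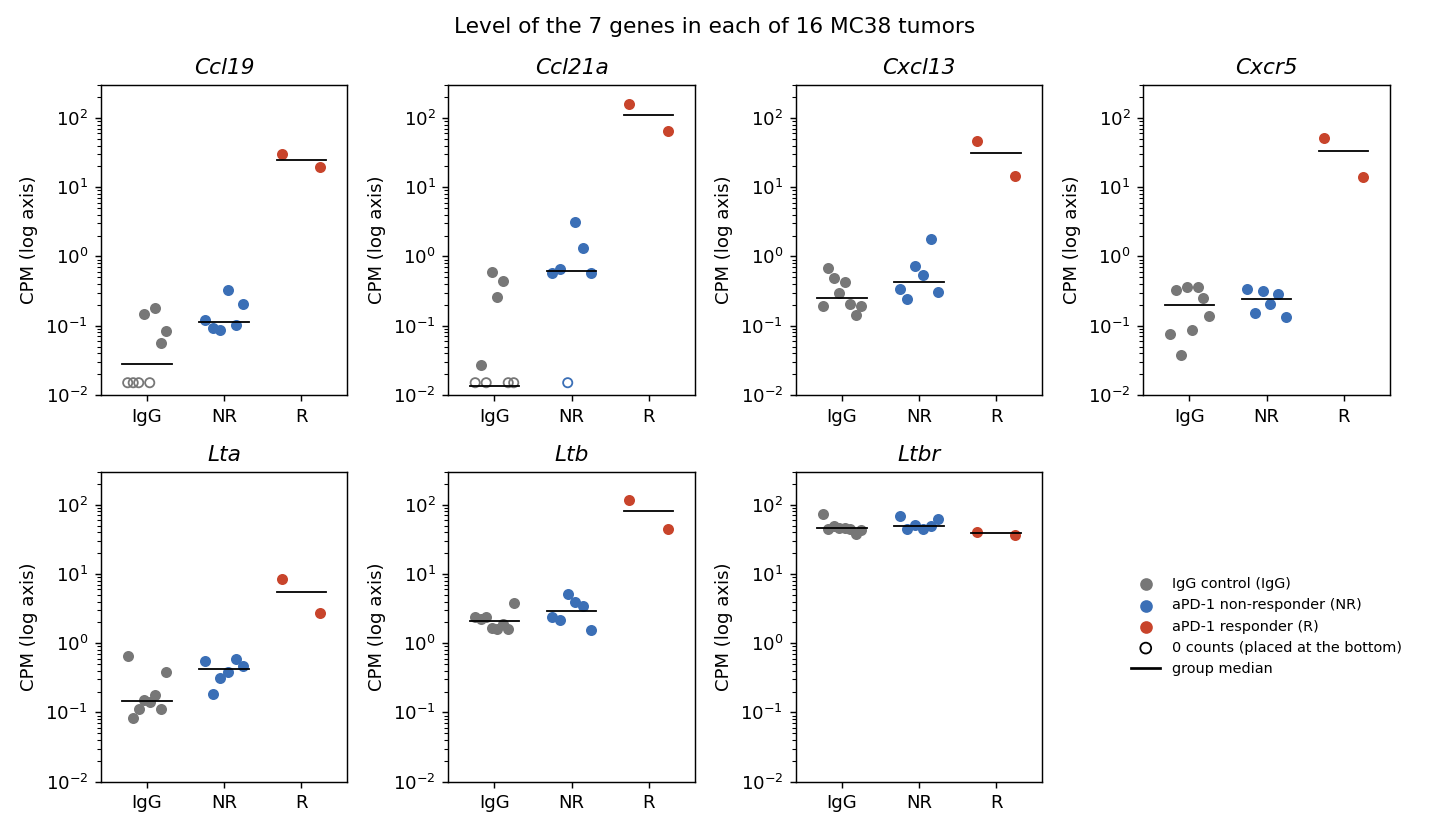
CPM (log axis) of each gene in each tumor, by group, where each point is a tumor, the line is the group median and open circles mark tumors with 0 counts. For 6 genes both responders lie above all other tumors, while Ltbr varies little, between 36.5 and 73.0 CPM.

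Of the T zone chemokines, Ccl21a reached the higher level in responders, also per kilobase of exon. This gene (ENSMUSG00000094686, chromosome 4, 42772860 to 42773993 of GRCm38) was at 157 and 64.2 CPM in responder replicates 15 and 16. The non-responders ranged from 0 to 3.11 CPM with a median of 0.624, and the IgG controls from 0 to 0.600 CPM with a median of 0.0137. No tumor outside the responders came near them: the highest, non-responder replicate 12, was 20.6 times below the lower responder. The log2 fold change was 6.70 (SE 0.92, adjusted p = 6.43e-05) against non-responders and 9.29 (SE 0.93, adjusted p = 1.79e-06) against IgG controls, where SE is the standard error. In 4 of 8 IgG controls and 1 of 6 non-responders no count was assigned to Ccl21a.

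Ccl19, the other CCR7 ligand (ENSMUSG00000071005, chromosome 4, 42754525 to 42756577), was at 29.7 and 19.8 CPM in the responders. Its non-responder values lay between 0.0864 and 0.329 CPM with a median of 0.112, and its IgG values between 0 and 0.1815 CPM with a median of 0.0281. All 14 tumors that were not responders held 13 counts or fewer, and 4 IgG controls held none. The log2 fold changes were 7.27 (SE 0.66, adjusted p = 8.44e-07) against non-responders and 8.55 (SE 0.64, adjusted p = 4.84e-08) against IgG controls. Ccl19 was tested only because of its level in the responders, so these p-values are not independent of that level. Of the 6 genes that rose, Ccl19 differed least between the responders, with replicate 15 at 1.501 times replicate 16.

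Both genes lie in a region of chromosome 4 with near copies, among which expected counts divide reads. Of the 31-base stretches of Ccl21a transcripts, 80.6% are also found in Gm21541, 79.5% in Gm13304 and 36.9% each in Ccl21b and Gm10591. Each of these copies differs from Ccl21a over the 402 coding bases by the same 2 substitutions, T84A and C194T, counted from 1 at the first base of the start codon with the Ccl21a base first. C194T lies in codon 65 and is shown because it tells the Ccl21a message from its copies. It is the capital in the 30 coding bases below, which an intron divides, at chr4:42773528-42773651 on the minus strand for Ccl21a and chr4:42115126-42115249 on the plus strand for Gm13304.
Ccl21a: ggcaatcctgttctCaccccggaagcactc
Gm13304: ggcaatcctgttctTaccccggaagcactc

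In the responders all 7605 counts of the Ccl21 family were assigned to Ccl21a, and in non-responders all 232 were. A count of 0 on the copies allows them a share of up to 0.0394% in responders and 1.29% in non-responders, by counting error only. In IgG controls 19 of 66 counts (28.8%) went to Gm13304, in 5 of 8 tumors. With all 5 genes summed, the log2 fold change against IgG controls was 8.82 (adjusted p = 2.35e-06). Against non-responders the sum is Ccl21a itself, since the copies held no counts in either group, and summing does not bear on that comparison. Ccl21a differed there by 7.09 in mean log2(CPM + 0.1) (p = 0.0357 by a two-sided exact permutation test, which is the smallest that 28 arrangements allow). In the Ccl19 family, copies took 33 of 50 counts in IgG controls, 53.5% in non-responders and 15.5% in responders, nearly all on Gm2564, which shares 58.8% of the stretches of Ccl19. Gm2564 itself was called higher in responders, with a log2 fold change of 4.60 (SE 0.77, adjusted p = 0.000353). The sum of Ccl19 and its 4 copies gave 6.43 (SE 0.54, adjusted p = 3.73e-07) against non-responders. How reads were split between copies remains uncertain for both families. Both genes also lie within the antisense gene 4930578G10Rik, which was listed at 0 in all 16 tumors.

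On the B cell side, the follicular chemokine Cxcl13 (ENSMUSG00000023078, chromosome 5, 95956951 to 95961068) was at 47.1 and 14.7 CPM in the responders. Non-responders ranged from 0.243 to 1.80 CPM with a median of 0.434, and IgG controls from 0.141 to 0.684 CPM with a median of 0.254. Replicate 13 was the highest of the non-responders and stood apart from the other 5, which lay at or below 0.720 CPM. The log2 fold change was 5.53 (SE 0.60, adjusted p = 5.1e-06) against non-responders and 6.54 (SE 0.56, adjusted p = 2.39e-07) against IgG controls.

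Its receptor gene Cxcr5 (ENSMUSG00000047880, chromosome 9, 44511787 to 44561877) was at 51.8 and 14.1 CPM in the responders. The 6 non-responders ranged from 0.1355 to 0.336 CPM with a median of 0.243, and the 8 IgG controls from 0.0374 to 0.363 CPM with a median of 0.196. Those groups overlapped throughout, and no non-responder exceeded the highest IgG control. The log2 fold change was 7.09 (SE 0.54, adjusted p = 1.41e-07) against non-responders and 7.27 (SE 0.49, adjusted p = 1.61e-08) against IgG controls. Cxcr5 overlaps Bcl9l on the other strand, and Bcl9l was not called (log2 fold change 0.39, adjusted p = 0.19 by the same edgeR test). The library kit keeps strand, but whether counting used it is not given in the sources used here.

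The lymphotoxin genes are neighbours on chromosome 17, with Tnf between them. Ltb (ENSMUSG00000024399, 35194439 to 35196320), which encodes the membrane-anchoring subunit, was at 117 and 44.4 CPM in the responders. It was detected in every tumor, from 1.56 to 5.13 CPM in non-responders with a median of 2.95, and from 1.58 to 3.795 CPM in IgG controls with a median of 2.07. Its log2 fold changes were 4.69 (SE 0.38, adjusted p = 2.47e-07) against non-responders and 5.21 (SE 0.35, adjusted p = 1.54e-08) against IgG controls.

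Lta (ENSMUSG00000024402, 35203165 to 35205351) encodes the soluble subunit and was at 8.46 and 2.70 CPM in responders, where it was also the lowest of the 7 per kilobase of exon. Non-responders lay between 0.182 and 0.591 CPM with a median of 0.427, and IgG controls between 0.0820 and 0.646 CPM with a median of 0.147. The lower responder was 4.18 times the highest other tumor, IgG control replicate 1, the narrowest such gap among the 6 genes. The log2 fold change was 3.73 (SE 0.57, adjusted p = 0.000162) against non-responders and 4.62 (SE 0.54, adjusted p = 6.47e-06) against IgG controls. Tnf, which lies between them, was at 8.87 and 7.17 CPM in responders and was not called (log2 fold change 0.30, SE 0.34, adjusted p = 0.617 by edgeR). Non-responders held 4.64 to 8.37 CPM of Tnf, a range that overlapped the responders.

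The receptor gene Ltbr (ENSMUSG00000030339, chromosome 6, 125306571 to 125313885) was called in no comparison. It was at 40.3 and 36.5 CPM in responders, 44.6 to 68.5 CPM in non-responders with a median of 49.9, and 38.1 to 73.0 CPM in IgG controls with a median of 45.5. Both responders lay below all non-responders and within or below the IgG range. How many of all genes had both responders below all non-responders was not computed, so this separation is not read as a result. Relative to non-responders its log2 fold change was -0.47 (SE 0.21, 95% interval -0.92 to -0.02, adjusted p = 0.14 by edgeR), which was not called. Against IgG controls it was -0.32 (SE 0.21, adjusted p = 0.298).

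**Figure D2:**
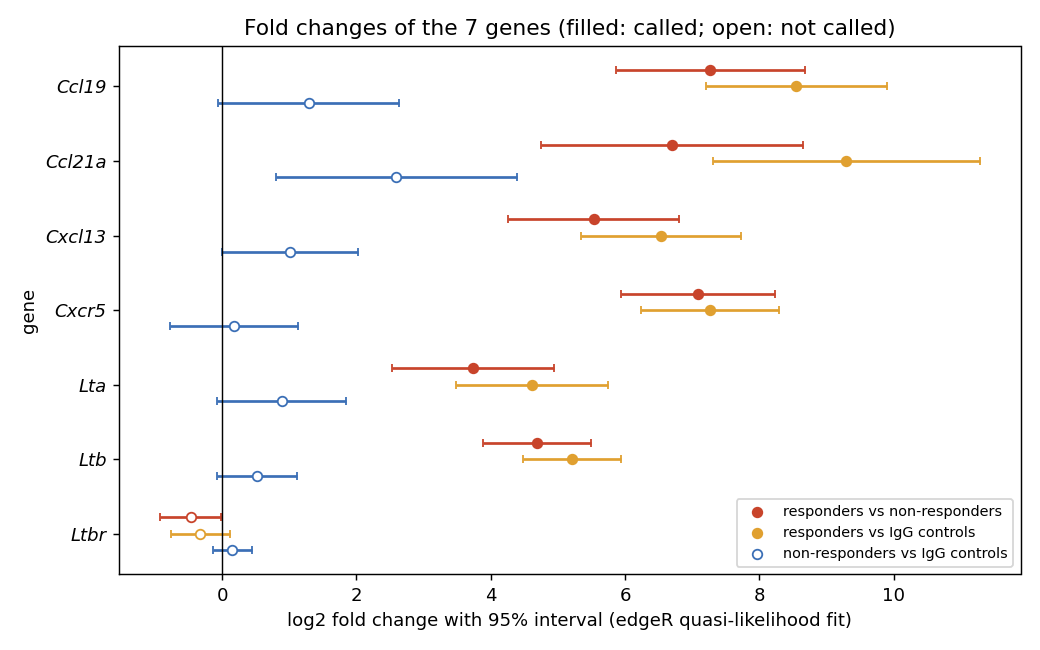
Log2 fold changes of the 7 genes with 95% intervals from edgeR's quasi-likelihood fit of 3 groups, for responders against non-responders, responders against IgG controls and non-responders against IgG controls. The first 2 comparisons lie between 3.73 and 9.29 for 6 genes, and no gene was called between non-responders and IgG controls.

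The order of the genes by level per length changed between groups. In CPM per kilobase of exon, Ltbr led in IgG controls at 20.4 ± 4.49 (SD, n = 8) and in non-responders at 22.6 ± 4.14 (SD, n = 6), with Ltb next at 1.44 ± 0.481 (SD, n = 8) and 2.06 ± 0.866 (SD, n = 6). The ranges of these 2 genes were far apart in both groups. Below Ltb, the levels per kilobase of Cxcl13, Ccl21a, Lta and Ccl19 in IgG controls ran from 0.286 down to 0.0679 with ranges that overlapped. In non-responders Ccl21a, Cxcl13, Lta and Ccl19 followed Ltb, from 1.20 down to 0.180, again with neighbours that overlapped. Cxcr5 was last in both groups, at 0.0616 and 0.0713 CPM per kilobase, and overlapped Ccl19 in both.

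In responders the order per kilobase was Ccl21a at 127 ± 75.7 (SD, n = 2), Ltb at 53.2 ± 33.9 (SD, n = 2), Ccl19 at 28.5 ± 8.08 (SD, n = 2) and Cxcl13 at 26.8 ± 19.9 (SD, n = 2). Ltbr followed at 16.3 ± 1.15 (SD, n = 2), then Cxcr5 at 9.90 ± 7.99 (SD, n = 2) and Lta at 4.03 ± 2.94 (SD, n = 2). Across the 2 tumors every pair of neighbours in this order overlapped, but within each tumor most kept their order. Ccl21a was at 181 against 77.2 for Ltb in replicate 15, and at 73.8 against 29.3 in replicate 16. Ltb also lay above Ccl19, Ltbr above Cxcr5 and Cxcr5 above Lta in both tumors. The order of Ccl19 and Cxcl13, and that of Cxcl13 and Ltbr, differed between the tumors. The Ltb level per kilobase was 12.6 and 15 times that of Lta in the responders, against 2.997 to 14.8 times in non-responders and 3.33 to 24.6 times in IgG controls. Replicate 16 lay above all non-responders and below only IgG control replicates 2 and 3, in each of which Lta held 3 counts, so no order of the groups was read from these ratios.

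Treatment without response left no called gene. Between non-responders and IgG controls 0 of the 7 genes were called, as were 0 of all 18251 genes (0%) by edgeR, where 694 genes had an unadjusted p below 0.05. Every one of the 7 log2 fold changes was positive, from 0.15 for Ltbr and 0.18 for Cxcr5 to 2.59 for Ccl21a. The interval for Ccl21a ran from 0.80 to 4.39 (unadjusted p = 0.00749, adjusted p = 0.987 by edgeR), and 3 of 6 non-responders lay above all 8 IgG controls. The share of all genes with as many above was not computed, and nothing is read from that count. For Ccl19 the change was 1.29, for Cxcl13 1.00, for Lta 0.89 and for Ltb 0.52, with 95% intervals that included 0. DESeq2 called 4 genes in this comparison and 0 of the 7.

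The randomized comparison, of all 8 aPD-1 tumors with the 8 IgG controls, also gave 0 calls among the 7 genes and 0 among all 15775 tested (0%), with 1799 at an unadjusted p below 0.05. The edgeR log2 fold changes were 7.37 for Ccl21a (SE 1.69), 4.65 for Cxcl13 (1.14), 3.39 for Ltb (0.89) and 2.93 for Lta (0.80), each with an adjusted p = 0.223. Ccl19 and Cxcr5 did not pass the filter in this fit; without a filter they were at 6.55 and 5.26, with an adjusted p = 0.246. DESeq2 called 3 of the 7 here, Ccl21a at 5.72 (adjusted p = 0.0383), Cxcl13 at 2.84 (adjusted p = 0.0314) and Cxcr5 at 3.25 (adjusted p = 0.0446). For all but Ltbr, DESeq2 replaced outlying counts by its default rule in that fit. With both responders left out of the aPD-1 arm, a setting added after seeing the data, none of the 7 was called.

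Of 46 other genes of these pathways, 44 were tested and 18 were called higher in responders than in non-responders, with 0 lower, where 12.5% of all genes were called higher. Over the tested genes of these lists the median was a log2 fold change of 0.56, against 0.02 over all genes tested. The same number, 18, was called against IgG controls, and 0 were called between non-responders and IgG controls. Of the 44, 6 passed the filter on low counts only through the responders, and 5 of these were among the 18. Over genes that passed otherwise, 13 of 38 were called higher, against 9.74% of 17394 genes. Without responder replicate 15 the count against non-responders was 10.

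Chemokine receptors and related chemokines held 7 called genes of 13 tested. Ccr7, the receptor for both T zone chemokines, was at 44.8 and 38.8 CPM in the responders and at 2.11 to 6.39 CPM in non-responders (log2 fold change 3.42, SE 0.30, adjusted p = 5.78e-07). Ackr4, a scavenger of CCL19 and CCL21, rose by 4.57 (adjusted p = 0.000178) and was at 2.72 and 0.787 CPM in responders, against 0 to 0.152 CPM in non-responders. Cxcl12, a chemokine of stromal cells, was at 221 and 83.0 CPM against 2.68 to 32.5 CPM in non-responders (log2 fold change 3.43, adjusted p = 0.00909 by edgeR). Its receptor gene Cxcr4 changed by 0.98 (adjusted p = 0.00187), just short of the fold required. Ccr9, a receptor of gut-homing lymphocytes, had a log2 fold change of 3.97 (adjusted p = 8.59e-07). Ccr6, a receptor of B cells and some T cells, was at 3.46 to 13.5 CPM in responders and at most 0.152 CPM elsewhere, and was tested only because of its level in the responders. Ccl20 was not tested because of low counts.

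Among lymphotoxin-related members of the TNF family, 5 of 11 were called higher. Of the 5, Tnfrsf13c and Cd40lg passed the filter only through the responders. Tnfrsf13c, the BAFF receptor gene of B cells, was at 12.6 to 46.3 CPM in responders and at most 0.366 CPM elsewhere. Cd40lg, the ligand by which T cells help B cells, was at 0.976 to 1.04 CPM in responders and at most 0.1215 CPM elsewhere. Tnfsf11, which encodes RANKL and acts in lymph node formation, rose by 2.25 (adjusted p = 0.000313), Cd40 by 1.36 (adjusted p = 5.72e-05) and Tnfsf14, the gene of LIGHT, a second ligand of the lymphotoxin beta receptor, by 1.21 (adjusted p = 0.00107). Tnfsf13b, the BAFF gene, was at -0.06 (adjusted p = 0.939).

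Of the genes that carry the signal of the lymphotoxin beta receptor, 0 of 10 were called in either direction, which in a list this short is near the 12.5% of all genes called higher. Their median log2 fold change was 0.15. Nfkb2, whose product is processed in the noncanonical pathway, was at -0.29 (adjusted p = 0.386), its partner gene Relb at 0.17 (adjusted p = 0.716), and Map3k14, the gene of the kinase NIK, at 0.27 (adjusted p = 0.461). Birc3 and Birc2, genes of the ubiquitin ligases that restrain NIK, had 0.71 (adjusted p = 0.00158) and 0.48 (adjusted p = 0.0453), under the fold required. These values are message levels and say nothing of the activity of the pathway.

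Genes of the cells that induce and organize lymphoid tissue gave 6 calls of 10 tested. Of these 6, 2 passed the filter only through the responders. Madcam1, an addressin of mucosal and developing lymph node vessels, was one of them, at 0.337 to 1.98 CPM in responders and at most 0.262 CPM elsewhere. The survival cytokine gene Il7 rose by 1.27 (adjusted p = 0.0288) and its receptor gene Il7r by 1.75 (adjusted p = 0.000659). The adhesion gene Icam1 rose by 1.71 (adjusted p = 7.08e-05) and Kit by 1.13 (adjusted p = 0.0197). Pdpn, a marker of reticular stroma, was at 0.09 (adjusted p = 0.859) and Vcam1 at 0.19 (adjusted p = 0.708). Il22 was at 0 counts in every tumor of all groups and was not tested.

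**Figure D3:**
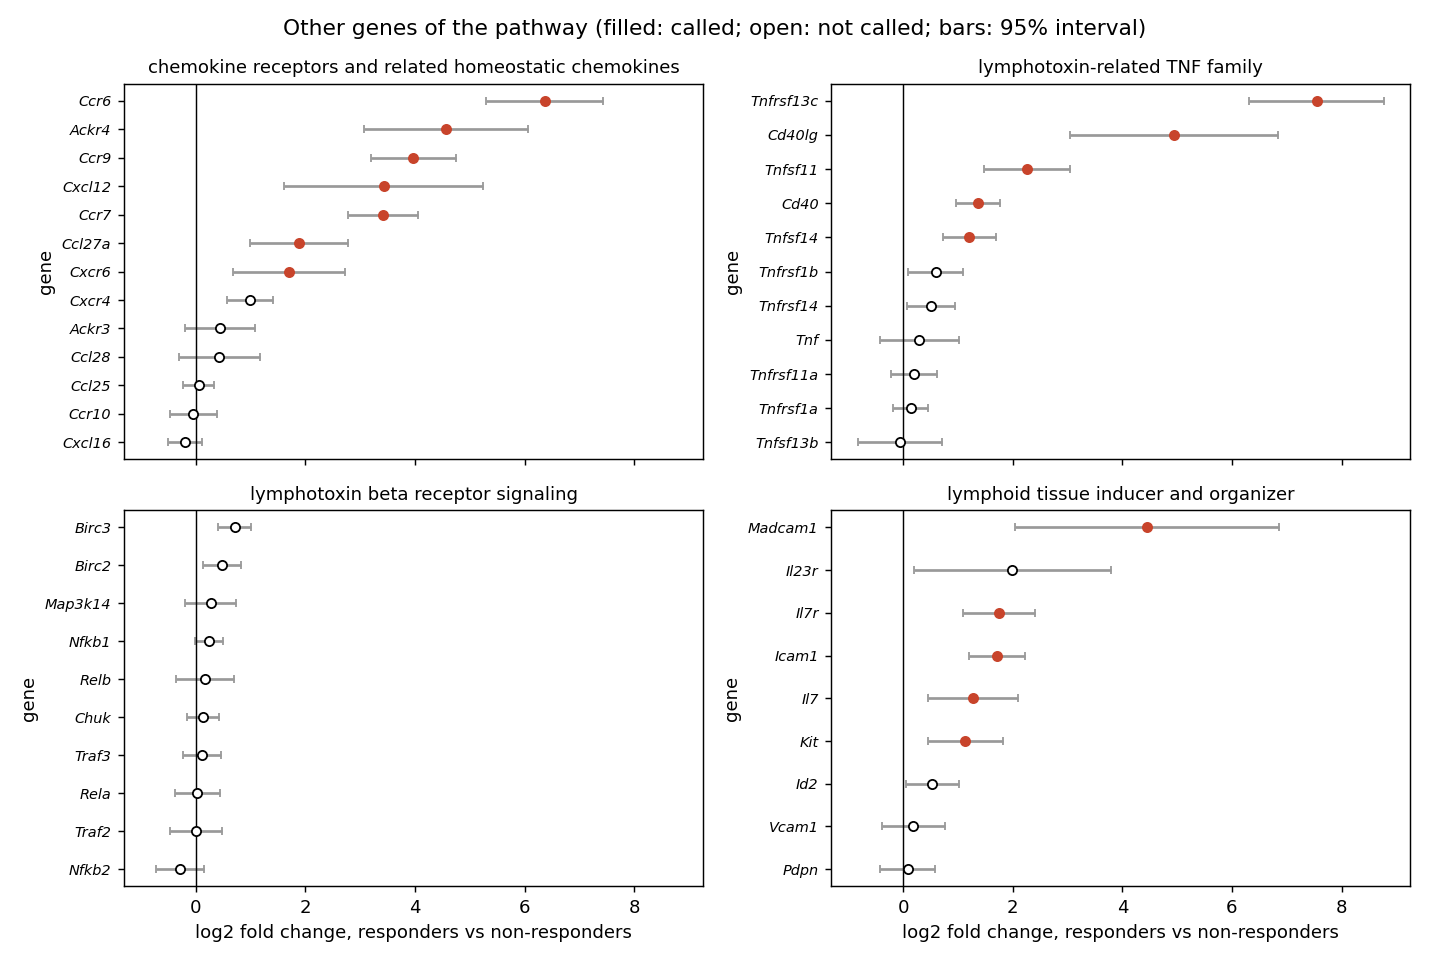
Log2 fold changes with 95% intervals of 43 of the 44 tested pathway genes in responders against non-responders, in 4 panels by list, with called genes filled. The panels show 7, 5, 0 and 5 called genes, and 1 called gene of the inducer and organizer list is not drawn. Ccr6, Tnfrsf13c, Cd40lg, Madcam1 and Il23r were tested only because of their level in the responders.

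Markers of several cell types moved with the 6 genes. The calls that follow are to be read against the 12.5% of all genes called higher, and 11 of the 60 called markers passed the filter only through the responders. Some lists share genes with each other or with the pathway lists, so their calls are not independent. Among the shared genes called are Ccr7, Il7, Il7r, Tnfsf11, Madcam1 and Cd40lg. All 9 B cell markers were called higher in responders against non-responders, and their summed level was 339 to 1334 CPM in responders, 2.10 to 7.29 CPM in non-responders and 1.90 to 8.84 CPM in IgG controls. All 7 T cell markers were called, with sums of 212 to 221 CPM against 11.8 to 33.0 and 7.38 to 28.6 CPM. Of high endothelial venule markers 4 of 5 were called, Glycam1 among them at 184 and 30.6 CPM in the responders and at most 1.02 CPM elsewhere. The sums were 106 to 275 CPM in responders, 74.1 to 98.4 CPM in non-responders and 59.1 to 106 CPM in IgG controls. The highest IgG control reached the lower responder, but outside the responders Gcnt1, the gene not called, made up nearly all of the sum. All 4 follicular dendritic cell markers were called (159 to 505 CPM against 51.6 to 92.5 and 58.4 to 87.4 CPM), but 2 of the 4, Cr2 and Fcer2a, also mark B cells.

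Calls were 6 of 7 for naive and recirculating T cells (396 to 488 CPM in responders, 64.4 to 94.2 CPM in non-responders and 48.2 to 84.4 CPM in IgG controls), 4 of 6 for follicular helper T cells (79.4 to 89.4 CPM against 34.1 to 61.7 and 26.8 to 54.8 CPM) and 4 of 5 for germinal center B cells, 3 of which passed only through the responders (53.5 to 76.7 CPM against 48.0 to 67.6 and 38.9 to 66.9 CPM). They were 4 of 6 for mature dendritic cells (145 to 160 CPM against 75.2 to 132 and 81.1 to 132 CPM), 4 of 5 for natural killer cells (13.9 to 38.7 CPM against 5.29 to 11.4 and 4.33 to 9.53 CPM) and 2 of 8 for macrophages and monocytes (1083 to 1129 CPM against 649 to 1012 and 610 to 892 CPM). Gzma, called in the natural killer cell list, is named in the paper as a marker of CD8 T cells. It was at 2.37 to 20.1 CPM in responders and up to 3.46 CPM in non-responders, so these overlapped. Plasma cell markers gave 2 calls of 5, with sums of 559 to 677 CPM against 151 to 221 CPM in non-responders and 157 to 237 CPM in IgG controls. In lists this short, 2 calls are not told apart from the share over all genes.

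Stromal cells make Ccl19 and Ccl21a in lymph nodes, and their lists gave calls for 2 of 6 markers of fibroblastic reticular cells and 2 of 5 of lymphatic endothelial cells. Their sums were 315 to 501 CPM in responders against 222 to 405 and 216 to 423 CPM for the former, and 183 to 222 CPM against 102 to 171 and 98.0 to 172 CPM for the latter, in non-responders and IgG controls. Markers from outside the immune system moved as well. All 5 fat cell markers were called higher (213 to 1180 CPM in responders, 19.3 to 50.2 CPM in non-responders, 16.0 to 79.6 CPM in IgG controls), as were 4 of 5 tested epithelial markers. Skeletal muscle markers gave 0 calls of 5 (2.22 to 10.8 CPM in responders and up to 1670 CPM in an IgG control) and keratinocyte markers 0 of 4 (7.25 to 9.58 CPM in responders). No defining marker of any of these lists was at 0 in both responders. The part of these cells in the levels of the 6 genes was not tested.

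The 2 responders were not alike. Replicate 15 was higher than replicate 16 for all 7 genes, by 3.66 times for Cxcr5, 3.21 for Cxcl13, 3.13 for Lta, 2.64 for Ltb, 2.45 for Ccl21a, 1.501 for Ccl19 and 1.11 for Ltbr. The sum of B cell markers differed by 3.93 times and that of high endothelial venule markers by 2.601 times. The venule sums, 275 and 106 CPM, include Gcnt1, which was not called and lay between 71.0 and 83.0 CPM in the responders. Of the called venule genes, Glycam1 was at 184 and 30.6 CPM, a wider difference than that of the sum. T cell markers differed by 1.05 times, Ccr7 by 1.15 times and fibroblastic reticular cell markers by 0.630 times. Fat cell markers differed by 5.54 times. Cxcr5 made up 3.88% and 4.17% of the summed B cell marker level in the responders, within the 1.32% to 10.2% of the other tumors. Outside the responders Cxcr5 held only 1 to 14 counts per tumor, so that range is wide by counting error and shows no constant share. These ratios rest on 1 tumor each and carry no test.

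**Figure D4:**
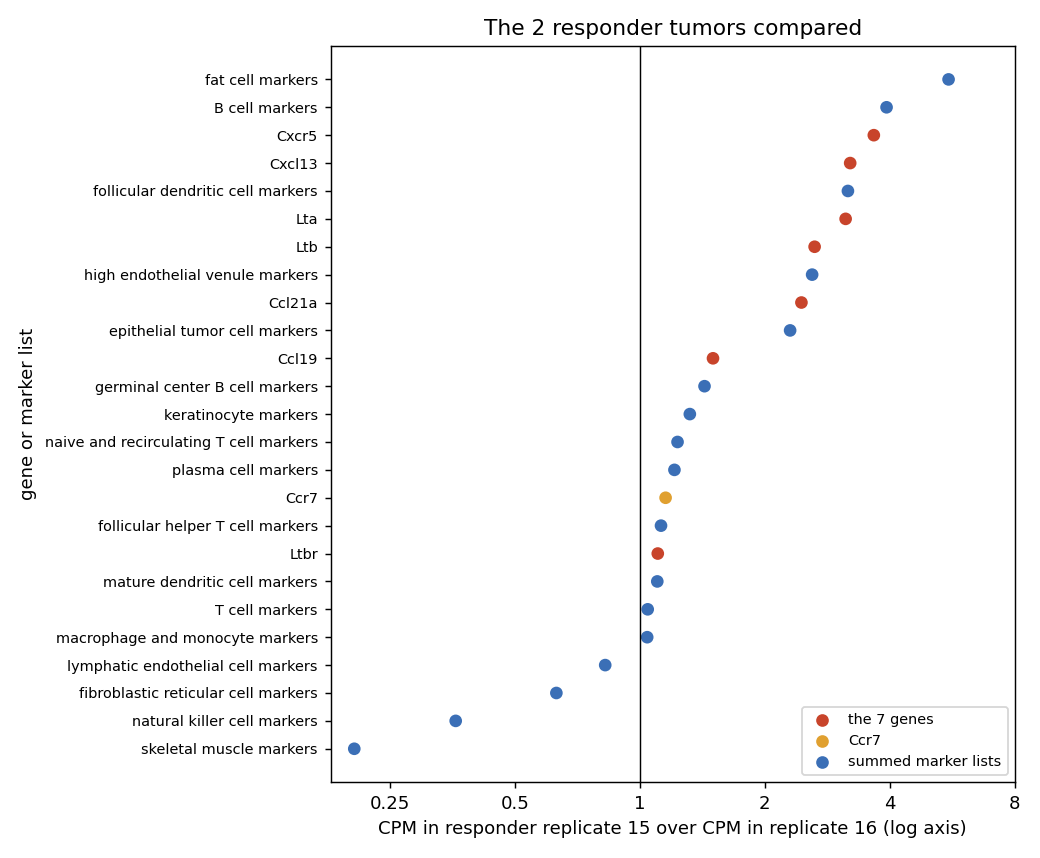
CPM in responder replicate 15 divided by CPM in replicate 16 (log axis) for the 7 genes, Ccr7 and the summed markers of 17 cell types. The 5 genes Cxcr5, Cxcl13, Lta, Ltb and Ccl21a lie between 2.45 and 3.66, and T cell markers and Ccr7 near 1.

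Left alone in the fit, either responder kept the calls against non-responders for all 6 genes, its spread being taken from the remaining groups. With replicate 16 alone the log2 fold changes were 6.88 for Ccl19, 5.86 for Ccl21a, 5.80 for Cxcr5, 4.40 for Cxcl13, 3.76 for Ltb and 2.62 for Lta, the last at an adjusted p = 0.0402 by edgeR. With replicate 15 alone they ran from 4.28 for Lta to 7.69 for Cxcr5. The count of all genes called fell to 923 higher or lower with replicate 16 alone, from 2289 higher and 121 lower with both.

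Genes whose pattern over the 16 tumors was most like each of the 6 were found among 16411 genes by the root mean square difference of centred log2 CPM, a description in which the contrast of responders with the rest weighs most. Nearest to Ccl19 were the immunoglobulin gene Ighv1-64 (0.53), the plasma cell gene Mzb1 (0.61) and Igkv10-96 (0.61). Nearest to Ccl21a was Glycam1 (1.03), the mucin-like ligand of L-selectin made by high endothelial venules, then Ighg2b (1.16) and the B cell gene Ms4a1 (1.22). Cxcl13 was nearest to Gpr174 (0.61), A430078G23Rik (0.61) and Il4i1 (0.62), and Cxcr5 to Btla (0.51), Gm42870 (0.51) and the B cell gene Bank1 (0.57). Lta was nearest to Acap1 (0.49), the T cell receptor gene Trbc1 (0.49) and Sept1 (0.49), and Ltb to Ptprcap (0.34), Il27ra (0.35) and Tbc1d10c (0.37). Among the 7 genes themselves the smallest difference was 0.74, between Lta and Ltb, and Ccl21a and Ccl19 differed by 1.42. Such differences grow with the span of a gene. It was 5.92 log2 units for Lta, 6.18 for Ltb, 8.99 for Ccl19 and 11.4 for Ccl21a. By rank, Ccl19 was number 7 for Ccl21a and Ccl21a number 219 for Ccl19. Ltb was number 81 for Lta and Lta number 187 for Ltb, so the pairs are not ordered by closeness here. Ltbr spanned 1.00 log2 units over the 16 tumors and was not compared in this way.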

How the data were processed

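Bulk RNA-seq of 16 MC38 tumors was analysed, with each tumor as a replicate. The authors aligned reads with STAR 2.6 to GRCm38, and the values deposited are expected counts per gene from RSEM 1.3.0 on Ensembl 91 genes, not normalized and not pooled. The table held 53557 rows, of which 92 were spike-in entries that name no gene (at most 185 counts in a tumor) and were left out. Expected counts were rounded, since 18.8% of nonzero values were not whole (tolerance 1e-09). Groups were compared with edgeR 4.0.16 in R 4.3.3 (TMM, filterByExpr, robust quasi-likelihood fit of 3 groups, and a fit of 2 arms). Calls required a Benjamini-Hochberg adjusted p under 0.05 and a log2 change of more than 1 in size. DESeq2 1.42.0 was an alternative. The edgeR steps were tested on simulated counts. Symbols and exon lengths came from GENCODE M21, near copies from shared 31-base stretches, and promoters from RefSeq.

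The 7 genes, the lists and the tests were chosen with earlier results of these data known. Genes named are the 7, their copies, the pathway and marker lists, and the 3 genes nearest in pattern for genes spanning more than 3 log2 units (prior count 2, mean of at least 10 counts). Alternatives were other scaling, filters, a fit of 2 groups, near copies summed and each tumor left out. Counting error alone covers the limits given for counts of 0. No batch is given in the labels, and spatial data were not analysed here. Results for some single genes of the lists are not reported here.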

Additional observations from a re-analysis of the deposited data

Results flagged for a closer look

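In 3 of the 14 groups examined (the 7 genes in IgG controls and in non-responders), a tumor lay farther from the others than the 95% limit of Dixon's test for its group size, where chance gives about 1 in 20 groups. Cxcl13 was at 1.799 CPM in non-responder replicate 13, with the next highest non-responder at 0.720 CPM. Ltb was at 3.795 CPM in IgG control replicate 8, the tumor in which Cd8a was also highest among IgG controls, at 11.5 CPM. Ltbr was at 72.97 CPM in IgG control replicate 1, against at most 49.7 CPM in the other 7 controls.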

How the results depend on the processing

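The 6 calls against non-responders and against IgG controls held under DESeq2, median-of-ratios size factors, no filter, a fit of only the groups compared, each tumor left out and the ribosomal entry left out, the last chosen after seeing the data. With at least 10 counts required in at least 8 tumors, Ccl19 was not tested and the other 5 stayed called. DESeq2 called 3 of the 7 genes and 110 genes in all between the 2 arms and 4 genes between non-responders and IgG controls, where edgeR called 0, and Ccl21a at 5.721 and Cxcl13 at 2.842 became called between arms.

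Leaving out 1 tumor at a time gave 923 to 2601 genes called against non-responders and 1243 to 2949 against IgG controls, and 10 to 18 pathway genes, with each lowest count reached without responder replicate 15. It gave 0 to 2 genes between non-responders and IgG controls and 0 to 4 between arms, with 2 and 4 reached without IgG control replicate 1. The Ccl21a difference from non-responders ranged from 6.447 to 7.739 in log2(CPM + 0.1), and with 1 responder left the exact permutation p was 0.143, the smallest that design allows. The Ltbr difference between arms, never called, ranged from -0.03371 without non-responder replicate 9 to 0.1652 without IgG control replicate 1, and was -0.003295 without non-responder replicate 14. Of the values for single genes, 465 kept direction and side of the threshold, 2 reversed and 2 became called. No paired analysis was possible because the replicate numbers run on across the groups and pair no tumors. Depth limits Ccl19, Ccl21a, Cxcl13, Cxcr5 and Lta outside the responders, where many tumors held fewer than 10 counts.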

Other observations

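Single markers of the cells that answer or make these chemokines differed within their lists between responders and non-responders, in the same edgeR fit. For the follicular helper T cell list, the log2 fold change of the transcription factor gene Bcl6 was 0.35 (adjusted p = 0.489) and that of Pdcd1 1.16 (adjusted p = 0.176). Il21, a cytokine gene of these cells, held 63 counts over the responders, 1 over the non-responders and 2 over the IgG controls. Gcsam, a gene of germinal center B cells, was at 4.25 (adjusted p = 8.7e-05), and S1pr2 at -0.23 (adjusted p = 0.42). Chst4, a sulfotransferase gene of high endothelial venules, held 134 counts over the responders, 2 over the non-responders and 5 over the IgG controls, and Gcnt1 had a log2 fold change of -0.09 (adjusted p = 0.78). Among lymphatic endothelial markers Reln was at 5.21 (adjusted p = 0.000422), and Lyve1 at 2.85 was not called (adjusted p = 0.0604). Prox1 was at 2.93 to 4.64 CPM in responders and at most 0.456 CPM elsewhere. Lamp3, a gene of mature dendritic cells, held 55 counts over the responders, 0 over the non-responders and 1 over the IgG controls. Il21, Chst4, Prox1 and Lamp3 passed the filter only through the responders. Of the same list as Lamp3, Fscn1 was at 0.01 (adjusted p = 0.991) and Ccl17 at -0.52 (adjusted p = 0.757). In the reticular cell list Tnfsf11 and Il7 were called and Pdgfrb, at 0.09 (adjusted p = 0.862), and Grem1, at -0.38 (adjusted p = 0.583), were not.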
